A study of Mus musculus with 4 samples.

Results

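The genes described here are 9 secreted regulators of Wnt signalling: the ligands Wnt2, Wnt2b, Wnt4, Wnt5a and Wnt9a, the R-spondins Rspo1 and Rspo3, and the secreted inhibitors Sfrp1 and Sfrp2. They were taken by symbol, and all 9 were among the 31053 genes listed for every library. Wnt ligands are lipid-modified proteins that act over short distances. They bind Frizzled receptors with the co-receptors Lrp5 and Lrp6 and stabilise beta-catenin, which switches on target genes together with TCF/LEF factors, or they act through Ror and Ryk receptors without beta-catenin. R-spondins bind Lgr receptors and keep the ubiquitin ligases Rnf43 and Znrf3 from removing Frizzled from the cell surface, so they make a cell more sensitive to Wnt. Secreted Frizzled-related proteins such as Sfrp1 and Sfrp2 carry a Frizzled-type binding domain and can hold Wnt ligands away from the receptors. In salivary glands and other branching organs the stroma is a known source of such signals for the epithelium.

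The cells came from female C57BL6/J mice and were profiled cell by cell with 10x Genomics kits in 4 libraries. For 2 deligated libraries (age 14 weeks) a metal clip had closed the main ducts for 14 days and had then been off for 5 days. For 2 homeostatic libraries (age 12 weeks) the glands had no surgery. In both groups epithelial and red blood cells were depleted with EpCAM and Ter119 beads and dead cells were removed, so the epithelial cells described below are those that escaped the depletion. The labels name the submandibular gland, while the protocols also name the sublingual gland. Nothing states how many animals gave a library, so p-values measure only the spread between these libraries, which may be technical.

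The libraries held 4725 and 8713 (deligated) and 12854 and 13266 (homeostatic) barcodes, of which 33695 were kept as cells. Median unique molecular identifiers (UMIs, counted RNA molecules) per barcode were 6075 and 5278 against 2912.5 and 2765.5. Any pair of libraries shared at most 54 barcodes. Age and the version of the counting software (Cell Ranger 6.0.1 for the deligated, 7.0.0 for the homeostatic libraries) changed with the group, so their parts in a difference and that of the surgery cannot be told apart. Across genes, the difference between groups fell with total intron length (Spearman's rho across genes, which are not independent, of -0.53 in the fibroblast-like class and -0.43 in both the endothelial-like and the mural-like class), and the intron length of a member is therefore given beside its result. The software's default on counting introns changed between these versions, from leaving them out to including them. Whether the defaults were used is not given in the sources used here, so for genes with long introns this and the surgery cannot be told apart. Clusters were named from marker lists, with all members and pathway genes left out of the clustering. The share of cells left unnamed was 1.70% and 3.77% in deligated libraries but 29.5% and 31.2% in homeostatic ones.

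For orientation, the sequences ahead of the start sites of the 3 members that passed the test in fibroblast-like cells and have a RefSeq promoter entry (6 of the 9 members have one) are printed on build GRCm38.p6, 5′ to 3′ on the gene's strand and ending where the annotated gene begins. They show how the regions differ in composition. Capitals mark the GC box (GGGCGG or its complement). Rspo1 and Sfrp2 held none in this stretch.
Sfrp2, chr3:83766071-83766320, plus strand: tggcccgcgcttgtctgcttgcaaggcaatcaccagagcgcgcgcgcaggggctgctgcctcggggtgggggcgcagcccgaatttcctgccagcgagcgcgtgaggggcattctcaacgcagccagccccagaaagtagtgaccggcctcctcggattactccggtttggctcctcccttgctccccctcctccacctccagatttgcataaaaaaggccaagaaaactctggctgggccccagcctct
Rspo1, chr4:124986180-124986429, plus strand: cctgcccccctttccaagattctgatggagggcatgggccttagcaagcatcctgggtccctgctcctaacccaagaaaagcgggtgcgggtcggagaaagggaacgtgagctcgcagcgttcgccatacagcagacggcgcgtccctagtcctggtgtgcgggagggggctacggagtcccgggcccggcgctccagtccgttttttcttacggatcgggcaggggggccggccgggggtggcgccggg
Wnt2, chr6:18030586-18030695, minus strand: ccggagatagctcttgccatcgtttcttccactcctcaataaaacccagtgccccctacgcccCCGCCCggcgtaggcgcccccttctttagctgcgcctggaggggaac
In windows of 300 bases (250 before and 50 after the start), G and C made up 66.0% for Sfrp2, 69.0% for Rspo1 and 65.7% for Wnt2, against a median of 52.7% over 32851 such windows. The core of the TCF/LEF motif, CTTTGA on either strand, was in none of the 6 members' windows and in 5257 of all windows. The GC box was in the windows of Wnt2, Wnt2b, Wnt4 and Wnt9a and in 35.7% of all windows. These are letter matches only.

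Most members were fibroblast genes in this tissue. Over the 9 cell classes with at least 20 cells in every library, Wnt2, Wnt5a, Wnt9a, Rspo1, Rspo3 and Sfrp2 had their highest mean level in fibroblast-like cells, the matrix-producing cells of the stroma. Wnt4 was highest in epithelial-like cells and Sfrp1 in Schwann-like cells, the glia of peripheral nerves. Wnt2b was close to absent from every class. Levels are CPM, the UMIs of a gene in a class and library scaled to a total of 1000000 UMIs, given with the SD over the 4 libraries, and levels of different genes are not compared.

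**Figure D1:**
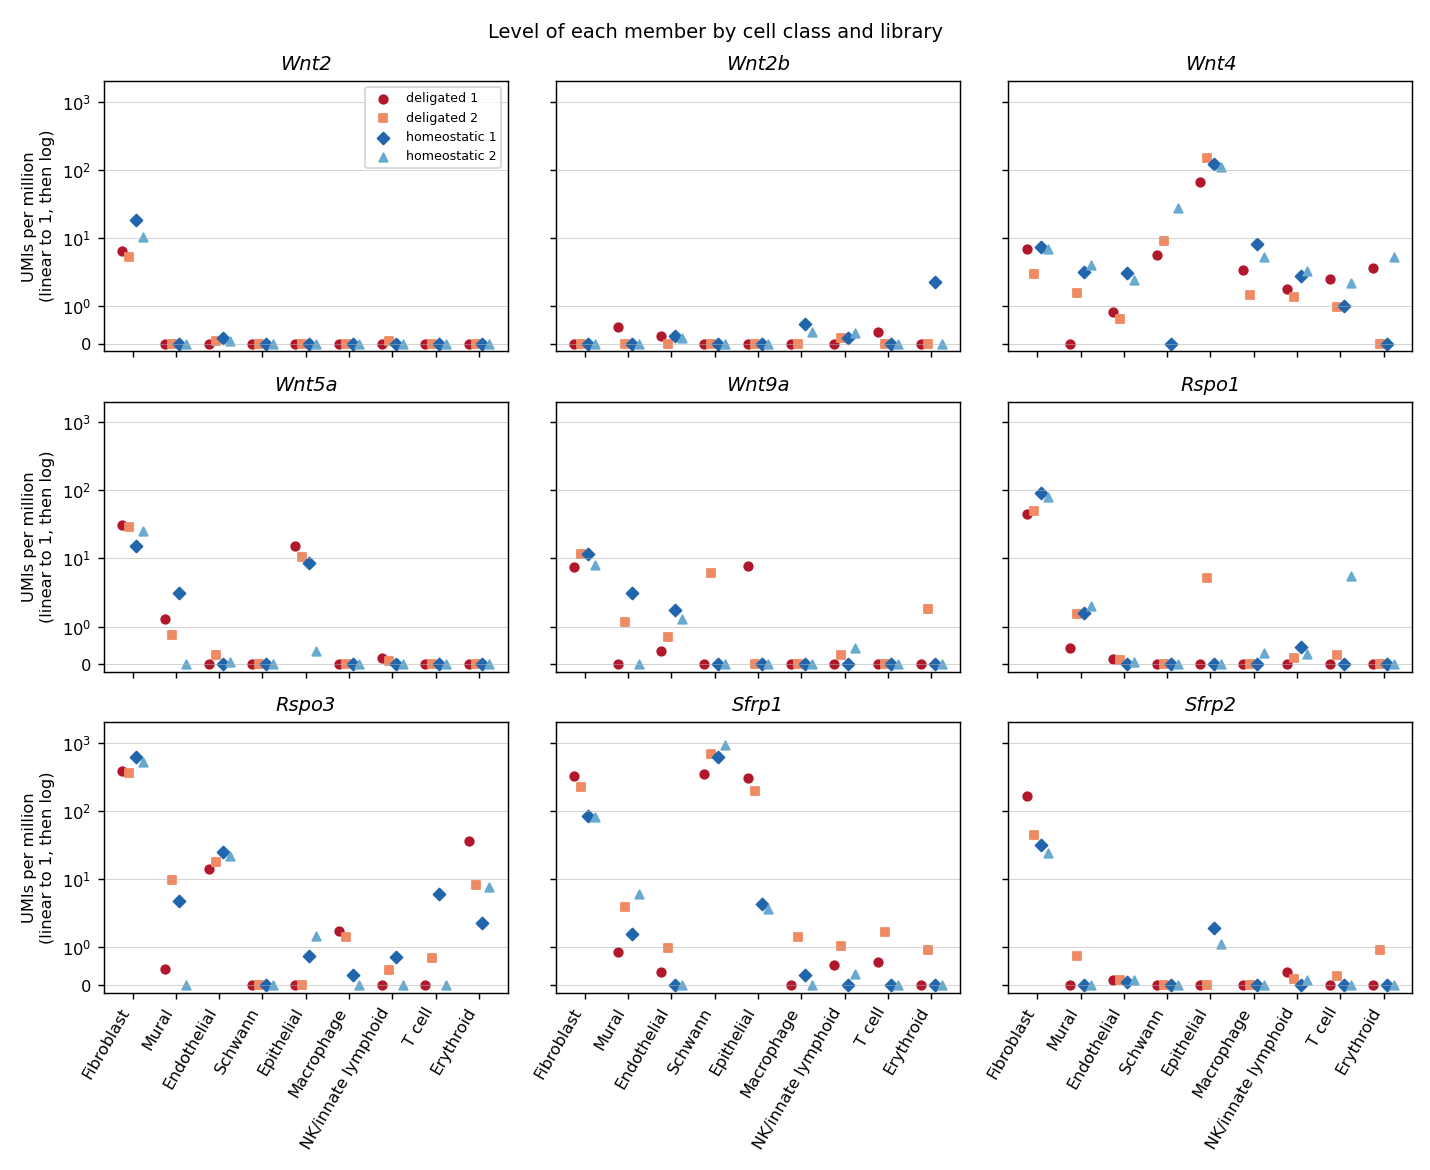
Level of each of the 9 members (CPM, axis linear up to 1 and logarithmic above) in the 9 classes with at least 20 cells in every library. Each point is 1 library. The 6 fibroblast genes stand highest in the first column, Wnt4 in epithelial-like and Sfrp1 in Schwann-like cells.

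Among the R-spondins, Rspo3 was at 471 ± 118 CPM in fibroblast-like cells (SD, n = 4) and next at 19.5 ± 4.72 CPM in endothelial-like cells (SD, n = 4), and the ranges of these classes did not overlap. The range of endothelial-like cells (13.8 to 24.8 CPM) overlapped that of erythroid cells (2.25 to 36.2 CPM), so this second place was not separated. Neither was the order below (erythroid, mural-like and the rest). Rspo1 was at 66.2 ± 22.5 CPM in fibroblast-like cells (SD, n = 4), and no other class exceeded 5.47 CPM in any library. Sfrp2 was at 66.9 ± 67.6 CPM in fibroblast-like cells (SD, n = 4) and at 1.92 CPM or less in every library of the other 8 classes. Of the ligands, Wnt2 was at 9.96 ± 5.74 CPM in fibroblast-like cells (SD, n = 4) and at 0.141 CPM or less in the other 8 classes. Wnt5a, a ligand that often signals without beta-catenin, was at 25.2 ± 7.05 CPM in fibroblast-like cells (SD, n = 4), but its range (15.1 to 31.2 CPM) overlapped that of epithelial-like cells (0.366 to 15.3 CPM). In cells with basal and myoepithelial genes Wnt5a stood at 19.5 and 29.6 CPM in the deligated and at 117 and 13.5 CPM in the homeostatic libraries, on 4, 2, 18 and 1 UMIs, a range that spans the fibroblast-like one. Wnt9a was at 9.66 ± 2.27 CPM in fibroblast-like cells (SD, n = 4), and its range (7.43 to 11.8 CPM) overlapped that of epithelial-like cells, which reached 7.67 CPM on 2 UMIs in 1 library.

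Wnt4, a ligand used in epithelial and endocrine organs, was at 65.2 and 146 CPM in the epithelial-like cells of the deligated libraries and at 119 and 108 CPM in those of the homeostatic libraries. The range lay above that of Schwann-like cells, the next class (0 to 27.3 CPM). Within the epithelial-like cells, those with UMIs of granular duct genes such as Klk1 and Egf held 293 and 283 Wnt4 UMIs in the homeostatic libraries, 137 and 122 CPM. The deligated libraries had 16 and 71 such cells, with 2 and 28 Wnt4 UMIs. Cells with UMIs of basal and myoepithelial genes held Wnt4 at 73.0 and 0 CPM in the deligated and at 51.9 and 108 CPM in the homeostatic libraries, on at most 20 cells a library. No test was run between groups in epithelial-like cells, which were down to 40 cells in 1 deligated library.

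Sfrp1 was at 353 and 683 CPM in Schwann-like cells of the deligated libraries and at 616 and 938 CPM in those of the homeostatic libraries, on 21 to 66 cells a library. The groups overlapped. Every Schwann-like value lay above every fibroblast-like value (81.1 to 323 CPM). In epithelial-like cells Sfrp1 stood at 307 and 198 CPM in the deligated libraries and at 4.23 and 3.66 CPM in the homeostatic libraries. Most of those UMIs were in cells with basal and myoepithelial genes (76 of 80 and 38 of 38 in the deligated libraries), where Sfrp1 stood at 370 and 562 CPM against 38.9 and 13.5 CPM. These values rest on 20, 10, 16 and 19 cells. The make-up of the epithelial-like cells also differed between the groups: 16 of 40 and 71 of 82 deligated cells, but 1231 of 1378 and 1319 of 1468 homeostatic cells, had granular duct genes. The 9 mural markers (6 to 9 detected), among them Acta2, Myh11 and Tagln, which myoepithelial cells also express, summed to 3979 and 3739 against 118 and 120 CPM in epithelial-like cells. The 7 fibroblast markers (4 to 7 detected) summed there to 468 and 486 against 245 and 53.0 CPM. The epithelial difference and the part of these markers in it were not tested.

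Wnt2b, a ligand of mesenchymal and epithelial sources in other organs, had 0 UMIs in fibroblast-like cells of all 4 libraries, which allows up to 0.637 and 0.464 CPM in the deligated and 1.68 and 1.71 CPM in the homeostatic libraries (3 UMIs, counting error only). At most 3 Wnt2b UMIs were counted in any class of a library. Wnt2b shares part of its locus with Gm43846 on the same strand, and Rspo3 with Gm20276, so reads there could be assigned to either gene. Genes on the other strand overlap Wnt5a (Gm2670), Rspo1 (Gm12930), Rspo3 (Gm48159) and Sfrp2 (Gm26771), and whether counting used the strand is not given in the sources used here.

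The main comparison asks whether the fibroblasts of the released gland carry the same Wnt regulators as those of the untouched gland. Fibroblast-like cells numbered 350 and 695 in the deligated and 256 in each homeostatic library. The inhibitors rose: Sfrp1 was 3.46-fold and Sfrp2 4.01-fold higher in deligated fibroblast-like cells. The activators Rspo1, Rspo3 and Wnt2 fell, being 1.72-fold, 1.45-fold and 2.33-fold lower. In 1 deligated library 5 cells held 78.5% of the Sfrp2 UMIs, and the Sfrp2 difference is 0.72 on the log2 scale without that library and does not pass with DESeq2 (adjusted p 0.131). With the trend on intron length removed, Sfrp1 and Rspo1 passed and Sfrp2, Wnt2 and Rspo3 did not, Rspo3 being at -0.04. Wnt4, Wnt5a and Wnt9a did not pass the test, and Wnt2b was too low to test. Of the 8 members tested, 5 passed (edgeR, adjusted p under 0.05), beside 25.9% of all 11442 genes tested in this class (8.4% higher and 17.5% lower), so that passing is common here. The median log2 difference was -0.25 over the 8 members and 0.01 over all genes tested.

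**Figure D2:**
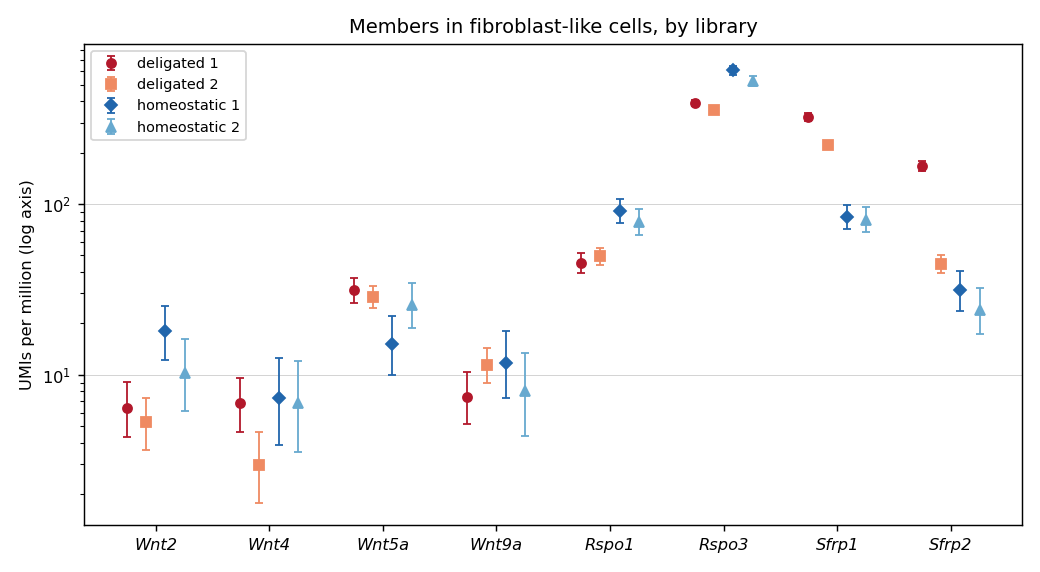
Level in fibroblast-like cells (CPM, log axis) of the 8 members with UMIs. Points are libraries and bars are exact Poisson intervals at 95%, which cover counting error only. Sfrp1 and Sfrp2 stand higher in both deligated libraries, while Wnt2, Rspo1 and Rspo3 stand lower in both.

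Sfrp1 (chromosome 8, 23411502 to 23449632, GRCm38; introns of 33.8 kb) stood at 323 and 222 CPM in deligated fibroblast-like cells and at 84.1 and 81.1 CPM in homeostatic ones. Both deligated values lay far above both homeostatic values. The log2 difference was 1.79 (SE 0.21, edgeR adjusted p 0.000363), and it passed under all 17 alternatives (1.46 to 2.09). The rise was spread over the cells: 75.7% and 61.9% of deligated against 33.6% and 35.5% of homeostatic fibroblast-like cells had an Sfrp1 UMI. With every cell thinned to 3000 UMIs the shares were 48.0% and 34.7% against 19.2% and 20.2%, leaving out 2 to 12 shallower cells a library. In NK/innate lymphoid-like cells, which should lack the gene, at most 0.628% of cells of a library had one, at median depths of 5483.5 to 6238 UMIs against 6679.5 to 13195 in fibroblast-like cells. These traces too were higher in the deligated libraries, at 0.532 and 1.05 against 0 and 0.284 CPM, and their part in the result was not tested. Sfrp1 showed no common direction between cells with and without UMIs of Pi16 or Dpp4, the markers of adventitial-type fibroblasts that lie around vessels: 294 against 345, 212 against 227, 123 against 81.5 and 80.6 against 81.1 CPM in the 4 libraries.

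Sfrp2 (chromosome 3, 83766321 to 83774316; introns of 5.84 kb) stood at 167 and 44.7 CPM in deligated fibroblast-like cells and at 31.4 and 24.0 CPM in homeostatic ones. The groups did not overlap, but the first deligated library lay far above the second. The log2 difference was 2.00 (SE 0.59, edgeR adjusted p 0.0366). In the first deligated library 5 of 350 cells held 619 of the 789 Sfrp2 UMIs (78.5%), with 205, 142, 105, 90 and 77 UMIs each. The sixth cell had 17. In the second deligated library 1 of 695 cells had 62 UMIs and the top 5 held 36.0%, while no homeostatic cell had more than 4. Outside the top 5 cells of each library, which were chosen on Sfrp2 itself, so that no test was run, the level was 36.1 and 28.6 CPM in the deligated and 23.0 and 15.98 CPM in the homeostatic libraries.

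The 5 cells with most Sfrp2 were large fibroblast-like cells of 31440 to 50765 UMIs, with 8 to 23 Pdgfra and 409 to 1526 Col1a1 UMIs. Of these cells, 4 had UMIs of both Pi16 and Dpp4. They held 0 to 4 Sfrp1 and at most 1 Rspo3 UMI each. Thinned to 3000 UMIs, 8.62% and 7.03% of deligated and 7.20% and 6.32% of homeostatic fibroblast-like cells had an Sfrp2 UMI, so the shares overlapped.

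**Figure D3:**
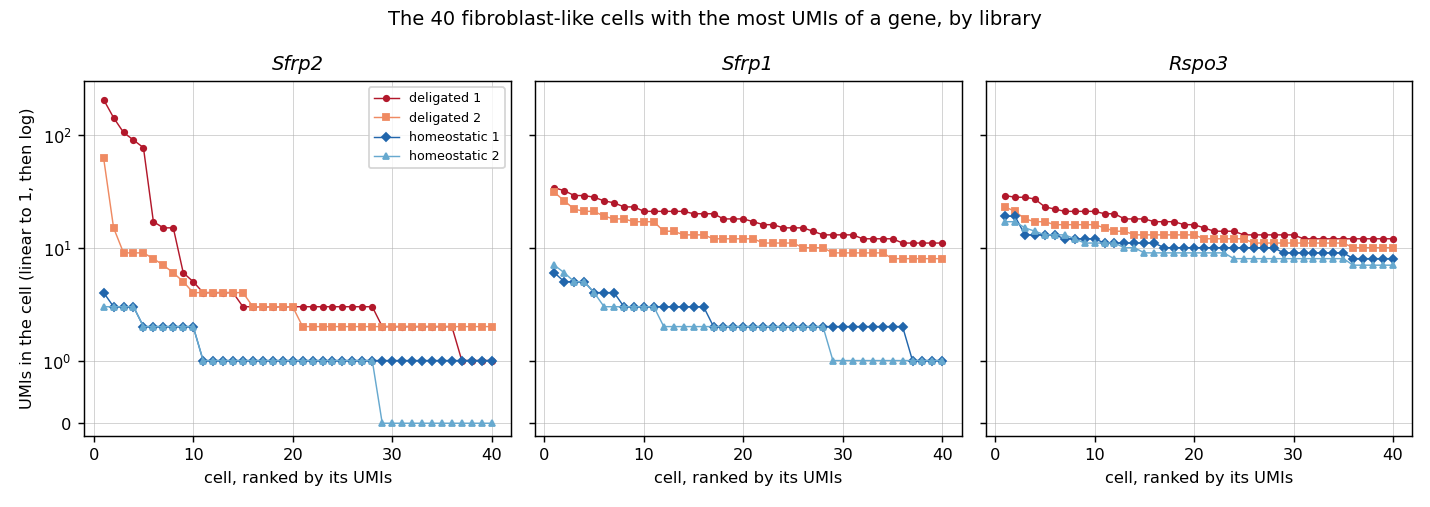
UMIs of Sfrp2, Sfrp1 and Rspo3 in the 40 fibroblast-like cells of each library that held most of that gene, ranked (axis linear up to 1, then logarithmic). In Sfrp2 the first 5 cells of the first deligated library, with 77 to 205 UMIs, stand above the rest, while Sfrp1 and Rspo3 decline gradually.

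The Sfrp2 call depended on which cells entered. Without the first deligated library the log2 difference was 0.72 (edgeR adjusted p 0.000381), and without the first or the second homeostatic library the call was lost (edgeR adjusted p 0.15 and 0.185). In such fits the lone library is assumed to vary like those of the other group. Doublet scoring had removed 27.9% and 27.2% of homeostatic but 6.02% and 12.0% of deligated cells that would otherwise be fibroblast-like, and the removed homeostatic cells held 147 and 63 Sfrp2 UMIs, more than the 56 and 42 of those retained. The removed cells also held Pecam1 (173 and 217 CPM) and Ptprc (112 and 154 CPM), markers of endothelial and blood cells. With no doublet removal Sfrp2 stood at 78.7 and 42.1 CPM in the homeostatic libraries against 153 and 41.5 CPM in the deligated ones, the groups overlapped, and the difference was 0.75 (edgeR adjusted p 0.384). With the trend on intron length removed it was 1.81 (edgeR adjusted p 0.0704).

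Rspo1 (chromosome 4, 124986430 to 125009099; introns of 20.7 kb) stood at 45.2 and 49.3 CPM in deligated and at 91.4 and 78.8 CPM in homeostatic fibroblast-like cells. Both deligated values lay below both homeostatic values, by more than the spread within a group. The log2 difference was -0.78 (SE 0.14, edgeR adjusted p 0.00402) and kept this value with the trend on intron length removed (-0.78, edgeR adjusted p 0.00684). Thinned to 3000 UMIs, 9.48% and 12.7% of deligated against 19.6% and 23.7% of homeostatic fibroblast-like cells had an Rspo1 UMI. The call was lost without the first homeostatic library (edgeR adjusted p 0.0827) and with cells thinned to 1000 UMIs (-0.63, edgeR adjusted p 0.185).

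Rspo3 (chromosome 10, 29452416 to 29535867; introns of 80.4 kb, the longest of the 9) stood at 391 and 356 CPM in deligated and at 609 and 527 CPM in homeostatic fibroblast-like cells. The groups did not overlap. The log2 difference was -0.54 (SE 0.13, edgeR adjusted p 0.0169). With the trend on intron length removed it was -0.04 (edgeR adjusted p 0.876). The call was also lost without either homeostatic library (edgeR adjusted p 0.245 and 0.107) and with no doublet removal (-0.28, edgeR adjusted p 0.174). In every library most fibroblast-like cells had an Rspo3 UMI, from 78.8% to 87.5%.

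Wnt2 (chromosome 6, 17988940 to 18030585; introns of 39.4 kb) was counted 30 and 34 times in deligated and 32 and 18 times in homeostatic fibroblast-like cells, or 6.37 and 5.26 against 17.9 and 10.3 CPM. The groups did not overlap, though the homeostatic libraries lay apart. The log2 difference was -1.22 (SE 0.35, edgeR adjusted p 0.0321), and it was -0.78 without the first homeostatic library (edgeR adjusted p 0.338). With the trend on intron length removed it was -1.03 and no longer passed (edgeR adjusted p 0.0776). Wnt5a (introns of 14.9 kb) stood at 31.2 and 28.6 against 15.1 and 25.7 CPM (log2 difference 0.61, SE 0.25, edgeR adjusted p 0.109) and passed without the second deligated library (0.74, edgeR adjusted p 0.00367) and with no low-count filter (0.66, edgeR adjusted p 0.0277). Wnt9a (introns of 23.3 kb) stood at 7.43 and 11.4 against 11.8 and 7.99 CPM and overlapped fully (log2 difference 0.01, SE 0.33, edgeR adjusted p 0.988). Wnt4 (introns of 18.0 kb) had only 12 to 32 UMIs a library, 6.79 and 2.94 against 7.29 and 6.85 CPM (log2 difference -0.51, SE 0.49, edgeR adjusted p 0.486).

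**Figure D4:**
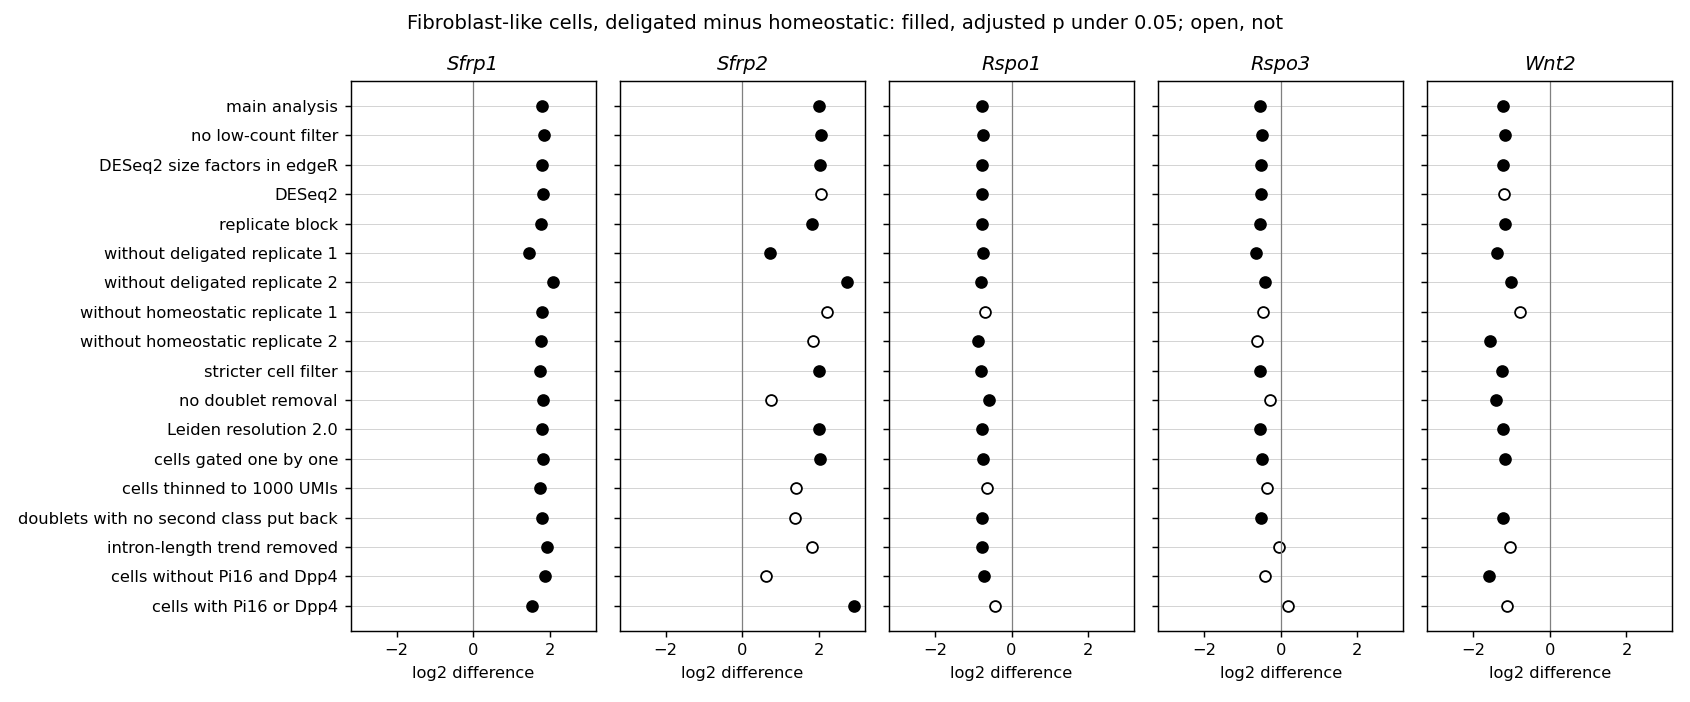
Log2 difference of the 5 members that passed the test in fibroblast-like cells, deligated minus homeostatic, under the main analysis and each alternative. Filled points passed at an adjusted p under 0.05 and open points did not. Sfrp1 is filled throughout, Sfrp2 ranges from 0.62 to 2.91, and Rspo3 moves to -0.04 with the intron trend removed. A setting without a point gave no value for that gene.

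Several properties of the fibroblast-like cells differed along with these members, and their part in the results was not tested. One cluster of 1059 cells was 98.7% deligated and the other, of 498 cells, held none from the deligated libraries. Median UMIs per cell were 13195 and 9285 against 6820.5 and 6679.5. The 7 fibroblast markers, all detected in every library, summed to 40856 and 38370 against 27361 and 28489 CPM. The 9 epithelial markers (5 to 7 detected) summed to 4.24 and 4.02 against 39.3 and 24.0 CPM, and the 7 macrophage markers (6 or 7 detected) to 11.2 and 25.5 against 106 and 106 CPM. The 7 Schwann markers (5 to 7 detected) summed to 62.0 and 64.0 against 123 and 139 CPM, lower where Sfrp1 was higher.

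Fibroblast-like cells with a UMI of Pi16 or Dpp4 made up 40.9% and 32.2% of the class in the deligated and 5.47% and 10.2% in the homeostatic libraries. Comparing them with the remaining fibroblast-like cells of the same library asks where within the class each member sits. Sfrp2 was higher in cells with Pi16 or Dpp4 and Rspo3 was lower. Of the 7 members tested, 2 passed, beside 2.24% of 10275 genes.

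Sfrp2 stood at 317 and 76.7 CPM in deligated cells with Pi16 or Dpp4 against 56.6 and 27.7 CPM in those without, but on 6 and 3 UMIs at 52.8 and 15.1 against 29.95 and 25.1 CPM in the homeostatic libraries. The log2 difference with the library as a term was 1.89 (SE 0.20, edgeR adjusted p 8.84e-07), and the second homeostatic library had the opposite direction. Of the 5 cells with most Sfrp2 in the first deligated library, 4 are among those with Pi16 or Dpp4, and without that library the difference was 1.18 (edgeR adjusted p 0.000277). Rspo3 stood at 270 against 481, 287 against 393, 211 against 636 and 317 against 554 CPM in the 4 libraries, lower with Pi16 or Dpp4 in all (log2 difference -0.79, SE 0.12, edgeR adjusted p 0.000213). Rspo1, Sfrp1, Wnt2, Wnt5a and Wnt9a did not pass. The difference between the groups did not pass as different between these subsets for any of 8 members (edgeR, beside 0.217% of 11060 genes). At an unadjusted p under 0.05 there were 2, Sfrp2 (log2 difference of differences 2.11, edgeR adjusted p 0.103) and Rspo3 (0.62, edgeR adjusted p 0.461). The gate reads UMIs, and median depth was 13385, 9943.5, 8684 and 7221.5 UMIs with Pi16 or Dpp4 against 12992, 9136, 6722.5 and 6644 without.

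Since cells with Pi16 or Dpp4 were more frequent in the deligated libraries, the comparison of groups was repeated in each subset. Sfrp1 rose in both, by 1.86 without and 1.53 with Pi16 or Dpp4 (log2; edgeR adjusted p 0.000112 and 0.00434). Rspo1 fell by 0.72 without them (log2; edgeR adjusted p 0.00738), and at -0.42 with them, on 9 and 10 homeostatic UMIs, it did not pass (edgeR adjusted p 0.613). Rspo3 was at -0.40 without and 0.19 with them (log2; edgeR adjusted p 0.0686 and 0.736). Sfrp2 was at 0.62 without and 2.91 with them (log2; edgeR adjusted p 0.207 and 0.0345). Wnt2 was at -1.59 without and -1.11 with them (log2; edgeR adjusted p 0.0156 and 0.426).

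Endothelial-like cells line the vessels, and elsewhere in the body endothelial Rspo3 and Wnt9a are known to act on neighbouring cells. In this class the 3 members that could be tested, Rspo3, Wnt4 and Wnt9a, were all lower in the deligated libraries. That is 3 of 3 tested and 3 of 9 members, beside 35.1% of 13125 genes (22.3% lower). Wnt4 and Wnt9a met the low-count filter only through the homeostatic libraries, where they were higher. Their shared direction was therefore partly set by the filter, and the count of 3 gives no support of its own. The other 6 members were too low to test. Among them Sfrp1 went the other way, at 0.346 and 0.968 CPM in the deligated against 0 and 0 CPM in the homeostatic libraries. Cells numbered 1884 and 3079 in the deligated and 3467 and 3403 in the homeostatic libraries. As in fibroblast-like cells, different clusters held most of them: one of 4077 cells was 99.0% deligated and one of 5148 cells 0.0583% deligated.

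Rspo3 stood at 13.8 and 17.9 CPM in deligated and at 24.8 and 21.6 CPM in homeostatic endothelial-like cells. The groups did not overlap (log2 difference -0.52, SE 0.13, edgeR adjusted p 0.0242). With the trend on intron length removed the difference was -0.14 (edgeR adjusted p 0.465). It did not differ from that of fibroblast-like cells beyond its error (0.13, SE 0.15, edgeR adjusted p 0.70). Per 1000 UMIs of the collagen gene Col1a1, a fibroblast marker, endothelial-like cells held 3279 and 1444 Rspo3 UMIs in the deligated and 58667 and 37125 in the homeostatic libraries, and fibroblast-like cells 73.6 to 426. The 7 fibroblast markers (6 or 7 detected) summed to 37.5 and 117 against 9.23 and 9.22 CPM in endothelial-like cells, higher where Rspo3 was lower, and their part in the result was not tested. Endothelial Rspo3 differed between cells with markers of different vessel types. Cells with venous markers stood at 39.6, 71.7, 64.2 and 62.8 CPM, those with capillary markers at 12.3, 16.6, 23.2 and 20.0 CPM, and those with arterial markers had 0 UMIs, which allows up to 5.99 CPM. The venous and capillary ranges did not overlap, and no test was run between them. Cells assigned to no vessel type stood at 43.5 and 32.4 CPM in the deligated and at 70.1 and 62.0 CPM in the homeostatic libraries, on 9 to 23 UMIs, so high Rspo3 was not limited to cells with venous markers. Lymphatic endothelial-like cells, 27 in all, held 9 and 18 Rspo3 UMIs in the deligated and 1 and 3 in the homeostatic libraries, at 104, 235, 48.7 and 70.2 CPM.

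**Figure D5:**
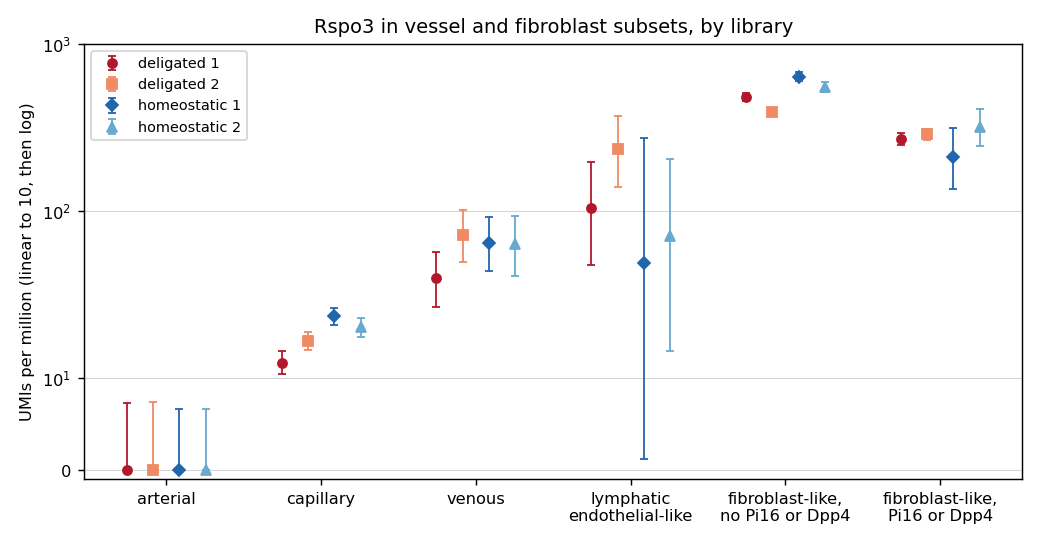
Rspo3 level (CPM, axis linear up to 10, then logarithmic) in subsets of endothelial-like, lymphatic endothelial-like and fibroblast-like cells. Points are libraries and bars exact Poisson intervals at 95% for counting error only. Values are 0 in arterial, 12.3 to 23.2 in capillary and 39.6 to 71.7 in venous cells.

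Endothelial Wnt4 was counted 12 and 11 times in the deligated and 43 and 33 times in the homeostatic libraries, or 0.830 and 0.665 against 3.03 and 2.40 CPM (log2 difference -1.83, SE 0.33, edgeR adjusted p 0.00706). The granular duct genes, products of the epithelial class in which Wnt4 is highest, moved in the same direction in endothelial-like cells, at 20.3 and 31.9 against 508 and 539 CPM. The 9 epithelial markers (8 or 9 detected) summed to 1.94 and 4.29 against 33.0 and 37.4 CPM there. Per 1000 UMIs of the granular duct genes there were 40.8 and 20.8 against 5.96 and 4.44 Wnt4 UMIs in endothelial-like cells, and 9.81 and 3.28 against 2.62 and 2.19 in epithelial-like cells. Their part in the Wnt4 result was not tested. Wnt9a was counted 5 and 12 against 25 and 18 times, or 0.346 and 0.726 against 1.76 and 1.31 CPM (log2 difference -1.46, SE 0.43, edgeR adjusted p 0.0398). Both passed with the trend on intron length removed (Wnt4 at -1.83, edgeR adjusted p 0.00888, and Wnt9a at -1.43, 0.0471). None of the 3 endothelial calls held without the first homeostatic library (edgeR adjusted p 0.122 for Wnt4, 0.185 for Rspo3 and 0.363 for Wnt9a) or without the second (0.0539, 0.0595 and 0.191). Wnt9a was also lost without the first deligated library (edgeR adjusted p 0.0526).

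In mural-like cells, the pericytes and smooth muscle cells around vessels, no member was abundant enough to test, in a class of 324, 459, 129 and 84 cells where 7.38% of 9821 genes passed. The highest value of any member there was Rspo3 at 9.64 CPM in the second deligated library, on 25 UMIs. In NK/innate lymphoid-like cells Wnt4 alone could be tested, at 1.77 and 1.37 against 2.71 and 3.26 CPM (log2 difference -0.90, SE 0.37, edgeR adjusted p 0.0878; 43.8% of 11512 genes passed). In T cell-like cells none could be tested, where 17.7% of 9726 genes passed (4.26% higher and 13.4% lower). Fibroblast-like cells were then set against mural-like and endothelial-like cells of the same libraries. Of 8 members in each, none passed as changing differently (edgeR), which says little of most of them, since counts were 0 to 25 UMIs a member and library in mural-like cells and 0 to 16 in endothelial-like cells for all but Rspo3, Wnt4 and Wnt9a. The shares over all genes were 0.412% of 11648 genes against mural-like and 6.68% of 14224 genes against endothelial-like cells. At an unadjusted p under 0.05 there were 0 and 3. As fibroblast-like minus endothelial-like, the 3 were Sfrp1 (log2 -3.79, edgeR adjusted p 0.114), Wnt4 (1.42, 0.177) and Wnt9a (1.62, 0.101). The estimated rise of Sfrp1 was thus larger in endothelial-like cells, where it rested on 5 and 16 against 0 and 0 UMIs.

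The rest of the pathway was described with 8 lists of 71 genes. In fibroblast-like cells 38 could be tested, of which 7 rose and 8 fell, with a median log2 difference of 0.13. Over all genes tested in this class 8.4% rose and 17.5% fell. Of 14 receptors tested, 3 rose and 3 fell. The Wnt receptors Fzd1 and Fzd2 rose by 1.19 and 0.80, while Ror1 and Ror2, receptors for Wnt5a-type signals, fell by 2.69 and 1.30 and the Wnt7 co-receptor Reck fell by 0.99 (log2; edgeR adjusted p 0.0011, 0.00538, 1.36e-05, 0.00075 and 0.00381). Znrf3, the ubiquitin ligase that R-spondins hold in check, fell by 1.94 (edgeR adjusted p 0.000242). Wls, which carries Wnt ligands to the cell surface, rose by 0.58 (edgeR adjusted p 0.0146). The secreted protein Dkk3 rose by 1.48, the only one of 3 other inhibitors tested to pass (edgeR adjusted p 0.00822).

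Inside the cell, 1 of 11 genes tested rose and 4 fell. Ctnnb1, which encodes beta-catenin, rose by 0.84, and Tcf7l1 and Apc, which restrain its targets, fell by 1.56 and 0.77 (log2; edgeR adjusted p 0.00483, 6.3e-05 and 0.00718). Tcf7l2, a partner of beta-catenin at its targets, and Axin1, a scaffold of its destruction complex, also fell, by 0.65 and 0.57 (log2; edgeR adjusted p 0.0285 and 0.0421), and were named after their values were seen. Of 5 feedback targets tested 1 rose, Nkd2, by 1.20 (edgeR adjusted p 0.0183). Both deligated libraries lay on the same side of both homeostatic libraries for each of the genes named. These genes were named because they passed, so this adds no support to them, and its share over all genes was not counted. With the trend on intron length removed, 9 of the 15 fibroblast calls remained, and Ror2 (introns of 173 kb), Apc and Fzd2 were among those lost. So were Axin1, at -0.27 (log2; edgeR adjusted p 0.342), and Tcf7l2 (introns of 183 kb), which turned to 0.37 (0.204). The sizes of those retained moved as well: Ror1 stood at -1.23, Znrf3 at -1.01, Tcf7l1 at -0.64 and Wls at 1.15 (log2; edgeR adjusted p 0.00152, 0.0113, 0.01 and 0.00103). The co-receptor Lrp6, the receptor Ryk and the kinase Gsk3b, which had not passed, then did, at 0.53, 0.50 and 0.86 (log2; edgeR adjusted p 0.0199, 0.0279 and 0.00347).

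Mural-like cells showed 4 calls among 31 pathway genes tested, all lower, as were 6.19% of all genes tested: Ror1 fell by 2.36, Ror2 fell by 1.51, Znrf3 fell by 1.69 and the ligand Wnt5b fell by 1.53 (log2; edgeR adjusted p 4.95e-06, 0.0481, 0.0274 and 0.0019), of which Ror1 and Wnt5b remained with the intron trend removed. In endothelial-like cells 6 of 36 rose and 7 fell, beside 12.8% of all genes tested in this class that rose and 22.3% that fell, so the count was near that of all genes. The intracellular genes Dvl1, Dvl3, Gsk3a and Ctnnb1, which do not all act in the same direction, rose by 0.54, 0.56, 0.59 and 0.49, and so did Bambi by 0.47. The R-spondin receptor Lgr4 fell by 1.04, Znrf3 fell by 2.12, Tcf7l1 fell by 0.65, Axin1 fell by 0.66, Ror1 fell by 3.31, Wnt5b fell by 3.33 and the Wnt inhibitor Apcdd1 fell by 1.55 (log2; edgeR adjusted p 0.000395 to 0.0241 for these 12). Of the 13 endothelial calls, 10 remained with the intron trend removed. Those lost were Tcf7l1, which turned to 0.10 (edgeR adjusted p 0.392), Lgr4, at -0.60 (0.0683), and Fzd8, at 0.24 (0.268). Wls, Lrp6, Ryk, Gsk3b and Tcf7l2, which had not passed, then did, at 0.80, 0.66, 0.43, 0.82 and 0.87 (log2; edgeR adjusted p 0.00143 to 0.0239). In mural-like cells Tcf7l2 did so too, at 0.85 (0.0401). In endothelial-like cells Ror1 and Wnt5b were below 0.3 CPM in both deligated libraries. They met the low-count filter only through the homeostatic libraries, so their direction there was set by the filter and gives no support of its own.

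The genes whose level was most like that of a member were found from Pearson's r of log2(CPM + 1) over 36 sums (9 classes in 4 libraries), as a description only, since sums of 1 class or library share cells and depth. Nearest to Rspo3 were Penk (r = 0.903), Flrt2 (0.896) and Lbp (0.895). Nearest to Sfrp1 were 3632451O06Rik (r = 0.973), Gria3 (0.943) and Col16a1 (0.942), and to Wnt5a Pdpn (r = 0.950), Sertad4 (0.929) and Ptprd (0.928). Rspo1 was nearest to Dchs2 (r = 0.944), Unc80 (0.938) and Hpca (0.937). Among the genes most like Wnt4 were Mal2 (r = 0.885) and Gm49123 (0.884). Among those most like Sfrp2 were Gm12022 and Gm34672 (r = 0.98 each). Wnt2 was nearest to Sphkap, Fetub and 8430436N08Rik (r = 0.99 each) and Wnt9a to 6030419C18Rik, Nfasc and Maob (r = 0.83 each). Wnt2b, with 19 UMIs in these classes, was left aside.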

How the data were processed

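The deposited matrices hold UMI counts per gene and barcode, made by the authors with Cell Ranger 6.0.1 (deligated) and 7.0.0 (homeostatic), per the file headers. The submitters' processing notes name mm10, Cell Ranger 6.0.1 and Seurat. Whether introns were counted is not given in the sources used here. Cells with at least 300 genes and at most 10% mitochondrial UMIs were kept, scored doublets were removed at 0.8% per 1000 cells, and cells were clustered with scanpy 1.11.5 (Leiden, resolution 1). A cluster was named from at least 3 markers of a fixed list. How clusters were scored was settled after seeing them. Endothelial and epithelial subsets needed at least 2 UMIs of 1 subset's markers and more than of any other.

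UMIs were summed per class and library and tested with edgeR 4.0.16 (quasi-likelihood, TMM, filterByExpr, Benjamini-Hochberg over all genes of the class) in fibroblast-like, mural-like and endothelial-like cells and other classes with at least 100 cells in every library, with R 4.3.3. DESeq2 1.42.0, other cell and gene filters, doublet handling, gates, thinning to 1000 UMIs, a replicate block, an intron-length trend and left-out libraries were the alternatives. The model was tested on simulated data. Coordinates and introns are from GENCODE M21 (99.9% of genes matched), promoters from RefSeq. Members and lists were chosen with earlier results of these data known. Named were all 9 members, pathway genes past the threshold (at most 12 a class by adjusted p) and the 3 genes most like each member. Some genes that this rule or a marker list holds are not reported here.

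With 2 libraries a group, exact permutation cannot give a p below 0.333 and was not used. Intervals cover counting error only, since free RNA and capture add to it.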

Additional observations from a re-analysis of the deposited data

How the results depend on the processing

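In fibroblast-like cells 5 members passed in the main analysis. The number was 3 with DESeq2, 3 with no doublet removal, 1 with cells thinned to 1000 UMIs and 2 with the intron-length trend removed, and 1 to 6 when a library was left out. In cells without Pi16 and Dpp4 it was 3, and in cells with Pi16 or Dpp4 it was 2. These subsets and the return of doublets with no second class (4 members) were chosen after seeing the data. In endothelial-like cells 3 passed (beside 4613 of 13125 genes), but 1 with DESeq2 (3435 of 13125) and 1 with cells thinned to 1000 UMIs (2653 of 10782). There Wnt4 kept its call in 12 of 14 alternatives, Rspo3 in 11 of 15 and Wnt9a in 7 of 14. In the remaining classes 0 passed, and 1 with no doublet removal. For the differences between classes 0 passed, and 0 to 1 when a library was left out. The cause of these shifts was not tested. DESeq2 gave Sfrp2 an adjusted p of 0.131 and Wnt2 one of 0.113.

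Directions turned (log2 differences) for Wnt9a in fibroblast-like cells, at -0.00800 with the replicate block, -0.29 to 0.29 when a library was left out (below 0 without deligated replicate 2 or homeostatic replicate 2), -0.0235 with the stricter cell filter, -0.0211 with cells gated one by one, -0.0570 in cells without Pi16 and Dpp4 and -1.03 in those with them, and Wnt4 there, at -1.23 to 0.0660 (above 0 without deligated replicate 2). Rspo3, which had passed, turned to 0.19 in cells with Pi16 or Dpp4. Between the subsets, leaving out a library gave -0.0271 to 0.51 for Wnt5a (below 0 without deligated replicate 2) and -0.12 to 0.0360 for Sfrp1 (above 0 without deligated replicate 1).

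Replicate numbers carry no stated pairing, and same-numbered libraries did not deviate together (correlations of -0.0979 to -0.0134 over 2 pairs in fibroblast-like, mural-like, endothelial-like and NK/innate lymphoid-like cells, and -0.174 in T cell-like cells, where no member was tested and no crossed pairing was fitted). With the replicate block 5 members passed in the fibroblast-like class, 2 in the endothelial-like class (Wnt9a was lost, edgeR adjusted p 0.0625) and 0 in the mural-like class. Wnt4 in fibroblast-like cells rested on 12 to 32 UMIs a library and Wnt9a in endothelial-like cells on 5 to 25.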
